A study of Mus musculus with 12 samples.

Results

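Expression was compared between mouse blastocysts that had received siRNA against Nampt as zygotes and untreated blastocysts, both from the arm labelled ND (taken here as normal diet). The comparison rested on 4 of the 12 libraries of the series, 2 labelled ND_siNampt and 2 labelled ND_C, chosen by their labels, and on every gene of the count tables. All 12 libraries came from wild-type embryos of ICR mice, an outbred stock, produced by in vitro fertilization of superovulated oocytes and cultured in KSOM medium to the blastocyst stage. Each library was poly(A) RNA from 1 pool of 10 blastocysts. ND_siNampt embryos were electroporated with the targeting siRNA at the one-cell stage. The ND_siNT group, read beside them here, received a non-targeting siRNA in the same way, and HFD_C and HFD_siNampt are the untreated and Nampt siRNA groups of the other diet. The series title speaks of normal weight and obese mice, and which parent received a diet is not given. The sources used here also do not give whether the untreated embryos passed through an electroporation without siRNA, so the procedure and the targeting siRNA cannot be told apart in this comparison. Each of 2 numbered batches held 1 pool of every group. The p-values measure the spread between such pools, in which fewer cells of a type and less RNA per cell cannot be told apart.

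Nampt encodes nicotinamide phosphoribosyltransferase, the rate-limiting enzyme that recycles nicotinamide to nicotinamide mononucleotide, from which NMNAT enzymes make NAD. NAD carries electrons in energy metabolism and is consumed by sirtuins and ADP-ribose polymerases, which release nicotinamide again. Its secreted form is known as visfatin. The blastocyst has an outer epithelium, the trophectoderm, that seals and pumps the cavity and later forms placenta, and an inner cell mass that divides into epiblast, the source of the embryo proper, and primitive endoderm, the source of yolk sac.

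The 4 libraries held 45292145 to 50503064 expected counts each and 16463 to 16733 genes with at least 1 rounded count. The filter on low counts was passed by 28 of 30 trophectoderm, 27 of 27 epiblast and 25 of 26 primitive endoderm markers. That filter was applied over all 12 libraries, so passing it does not show expression in each of these 4. Levels are given in CPM, a gene's count relative to the scaled library size. On log2 CPM, libraries of the same batch were closer than libraries of the same group. Pearson's r across genes was 0.9745 between the control and the siNampt pool of batch 1 and 0.9715 in batch 2, against 0.9665 between the 2 controls and 0.9649 between the 2 siNampt pools. The first principal component, with 43.68% of the variance, separated the batches. Summed CPM of 10 Y-linked genes was 329 and 116 in the control pools and 355 and 92.1 in the siNampt pools of batches 1 and 2. Xist, the RNA of the inactive X, was at 71.1 and 187 CPM in the controls and 32.4 and 169 CPM in the siNampt pools. Among these 4 pools both measures thus differed more between batches than between groups. With non-targeting siRNA the Y-linked sum was 317 and 433 CPM in batches 1 and 2, so it did not follow the batch in every group. A fit with the Y-linked genes as a covariate called 0 genes. Markers of other cells had a summed CPM of 197 to 234 (control) and 226 to 303 (siNampt) for cumulus and granulosa cells, 39.7 to 51.9 and 42.5 to 57.4 for sperm, 1159 to 1256 and 1090 to 1350 for oocytes, and 50.1 to 74.9 and 37.2 to 61.6 for blood and endometrium. In each of these lists the ranges of the 2 groups overlapped.

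No gene passed the threshold for the siNampt pools against the controls. Of 14743 genes tested, 0 (0.0%) had an adjusted p under 0.05 by edgeR's quasi-likelihood test with Benjamini-Hochberg adjustment over all of them, and the lowest adjusted p was 1.00. At an unadjusted p under 0.05, called the nominal threshold here, there were 377 genes (2.56%), fewer than the 737 that uniform p-values would give; 177 (1.2%) were higher and 200 (1.36%) lower in siNampt. Both siNampt pools were above both controls for 2178 genes (14.8%) and below both for 2184 (14.8%). The median log2 difference over all genes was -0.01, with 48.7% of genes above 0 and 51.2% below. The median standard error (SE) over genes averaging 5 CPM or more was 0.23 on the log2 scale. With the batch as a replicate block, 426 genes were under the nominal threshold and 0 passed. DESeq2 called 2 genes, Ifng and Trim43b, and a quasi-likelihood fit with no filter on low counts called 58. In that last fit the estimated prior degrees of freedom were infinite, so that every gene took its spread from the trend alone. None of the genes described below passed with the filter (adjusted p = 1.00 for each). For the pools with non-targeting siRNA against the same controls, 0 genes (0.0%) passed and 840 (5.7%) were under the nominal threshold.

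Nampt mRNA, the target of the siRNA, was not detectably lower in siNampt than in control blastocysts, and the 2 differed by at most 1.32% within a batch. Its level was 54.2 CPM in the control of batch 1 and 38.2 CPM in the control of batch 2, and 53.9 and 37.7 CPM in the siNampt pools. These values rest on 2721, 1801, 2577 and 1934 rounded counts. The siNampt pool was 0.648% lower than the control within batch 1 and 1.32% lower within batch 2, while batch 2 was 29.5% lower than batch 1 in controls and 29.9% lower in siNampt pools. The log2 difference was -0.01 ± 0.24 (SE; n = 2 against 2; adjusted p = 1.00 by edgeR), with a 95% interval from -0.54 to 0.51. That interval reaches a 31.3% decrease, and larger decreases in Nampt mRNA at the blastocyst stage lie outside it. In the pools with non-targeting siRNA Nampt was at 74.6 and 49.4 CPM, above the control of the same batch in both. The gene lies at chr12:32820335-32853369 (GRCm38, RefSeq), and its level over the 4 libraries was 8.83 to 12.5 TPM, a unit scaled by transcript length in which genes can be set beside each other. The siRNA was introduced at the one-cell stage and the RNA was taken at the blastocyst stage; earlier stages and NAMPT protein were not measured here.

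**Figure D1:**
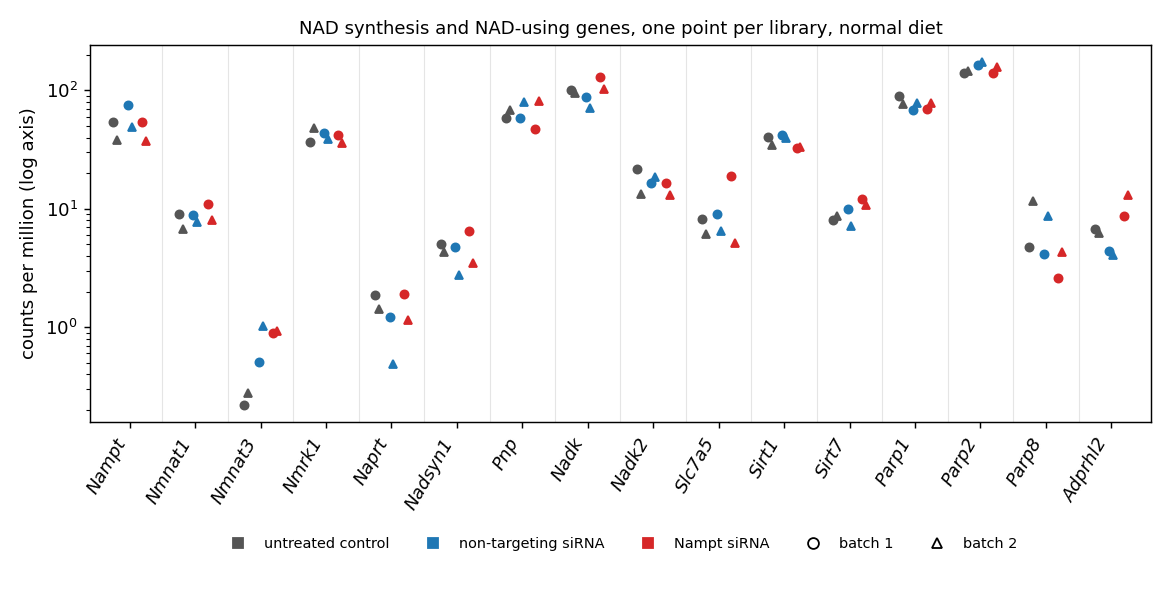
Levels in CPM of genes that make or use NAD (log axis) in 6 libraries of the normal diet arm, 1 point per library, coloured by treatment, with circles for batch 1 and triangles for batch 2. For Nampt the red siNampt points sit level with the grey control points of the same batch, at 53.9 beside 54.2 and 37.7 beside 38.2.

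No measured gene of NAD synthesis and salvage, Nampt included, passed the test over all genes. Of 31 listed genes 22 were measured; 14 were higher and 8 lower, and the median log2 difference was 0.09. Under the nominal threshold were 2 members (9.09%), both higher, against 1.2% of all genes in that direction. In the salvage route, Nmnat1, the nuclear enzyme that turns nicotinamide mononucleotide into NAD, was at 9.04 and 6.75 CPM in the controls and 10.9 and 8.10 CPM in siNampt (log2 0.26 ± 0.25 SE). Nmnat3, the mitochondrial enzyme of the same step, was at 0.219 and 0.276 CPM in the controls and 0.899 and 0.937 CPM in siNampt. The 2 groups did not overlap, with a log2 difference of 1.88 ± 0.66, but Nmnat3 was also at 0.505 and 1.03 CPM with non-targeting siRNA and its mean level was only 0.302 TPM. Nmrk1, a kinase that enters nicotinamide riboside into the pathway without NAMPT, was at 36.3 and 47.8 CPM in controls and 42.2 and 36.2 CPM in siNampt, so the groups overlapped. Pnp, which releases nicotinamide from its riboside, was at 58.8 and 68.5 against 47.3 and 80.6 CPM. The nicotinic acid route held Naprt, its first enzyme, at 1.87 and 1.42 against 1.90 and 1.15 CPM, and Nadsyn1, which amidates its product to NAD, at 5.001 and 4.33 against 6.52 and 3.45 CPM. Both overlapped between the groups. NAD kinases make NADP: Nadk was at 99.95 and 94.7 CPM in controls and 129 and 103 CPM in siNampt (log2 0.25 ± 0.18 SE), and the mitochondrial Nadk2 at 21.5 and 13.5 against 16.6 and 13.1 CPM. Per length, Nadk (38.8 TPM on average), Nmrk1 (29.2 TPM) and Pnp (23.7 TPM) were the most abundant of these transcripts, above Nmnat1 (11.9 TPM) and Nampt (10.7 TPM). The second member under the nominal threshold was Tdo2, the liver enzyme that starts NAD synthesis from tryptophan. It had 66 rounded counts in the siNampt pool of batch 2 and 0 in the other 3 libraries, so its difference rests on 1 pool.

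Among the enzymes that use NAD, few members stood apart. All 7 sirtuins were measured, 3 higher and 4 lower with a median log2 difference of -0.01, and 0 were under the nominal threshold. The smallest p was that of Sirt7, a nucleolar deacylase, at 7.99 and 8.77 CPM in controls and 12.2 and 10.8 CPM in siNampt (log2 0.46 ± 0.26 SE). Sirt1, the nuclear deacetylase, was at 40.1 and 34.4 against 32.4 and 33.0 CPM, and the mitochondrial Sirt3 at 13.3 and 12.1 against 10.1 and 11.7 CPM. Both siNampt pools were thus below both controls for these, by less than 1 SE (log2 -0.19 ± 0.21 and -0.21 ± 0.24). Sirt2 (0.31 ± 0.27) and Sirt6 (-0.20 ± 0.25) showed differences of about the same size as their SE. Of 26 genes for adding or removing ADP-ribose 23 were measured, 9 higher and 14 lower, with a median of -0.08 and 1 member (4.35%) under the nominal threshold in each direction, against 1.2% and 1.36% of all genes. Adprhl2, a hydrolase that removes ADP-ribose from serine, was at 6.75 and 6.20 CPM in controls and 8.61 and 12.98 CPM in siNampt (log2 0.74 ± 0.26 SE), and at 4.39 and 4.08 CPM with non-targeting siRNA. Parp8, a mono-ADP-ribosyltransferase, was at 4.72 and 11.7 CPM in controls and 2.61 and 4.35 CPM in siNampt (log2 -1.24 ± 0.50 SE). Parp8 was lower in siNampt within each batch, but the lower control lay close to the higher siNampt pool. Parp9 was at 3.17 and 3.14 against 1.67 and 2.17 CPM (log2 -0.72 ± 0.36 SE). The main DNA-damage polymerases Parp1, at 89.5 and 76.6 against 69.2 and 77.8 CPM, and Parp2, at 141 and 145 against 141 and 158 CPM, gave log2 differences of -0.18 ± 0.17 and 0.07 ± 0.14 (SE).

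The 12 genes of smallest p among those higher in siNampt, with a mean of at least 5 CPM over the 4 libraries, were Cnn2, Bok, Csrp1, Dstn, Pde8a, Myl9, Tpm4, Marveld2, Sorbs3, Rsu1, Arpc5 and Serpinb6b. Their unadjusted p-values ran from 0.000641 to 0.00645 and their log2 differences from 0.52 to 1.91. All were chosen by this contrast, so their lack of overlap between groups is a consequence of the choice. Promoter windows from RefSeq (GRCm38) were found for 11 of the 12 and searched for the CArG box, the site of serum response factor, which controls many genes of the actin cytoskeleton. Both strands were searched, the motif is its own reverse complement, and it was chosen after these genes were seen. Counted by gene, it occurred before 2 of the 11, before 0 of 7 with a window among the 12 genes described next as lower, and before 439 of all 27025 genes with a window of 250 bases (1.62%). Counted by window, it was in 2 of 13, 0 of 15 and 482 of 32851 (1.47%). The 2 windows are shown because they hold it, in capitals: that of Cnn2 is the 250 bases before the start on the plus strand, and that of Myl9 is 194 bases on the plus strand, cut where the annotated gene begins.
Cnn2, chr10:79988350-79988599: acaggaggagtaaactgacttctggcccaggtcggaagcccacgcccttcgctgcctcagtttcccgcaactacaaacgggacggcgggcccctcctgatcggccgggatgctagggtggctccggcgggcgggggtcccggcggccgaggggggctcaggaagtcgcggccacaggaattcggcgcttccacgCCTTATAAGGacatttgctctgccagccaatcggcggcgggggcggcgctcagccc
Myl9, chr2:156775214-156775407: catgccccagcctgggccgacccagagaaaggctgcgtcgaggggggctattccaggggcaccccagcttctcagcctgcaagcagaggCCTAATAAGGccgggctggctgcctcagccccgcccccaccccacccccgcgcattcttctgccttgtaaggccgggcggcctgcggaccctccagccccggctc
The match begins 56 bases before the annotated start in Cnn2. In Myl9 it begins 161 bases before a transcript start at chr2:156775464. That start lies inside the annotated gene, which begins at chr2:156775408, just after the sequence shown. A match of letters does not show that a factor binds there.

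Of these 12, several encode proteins that bind actin or myosin filaments. Cnn2, calponin 2, which binds actin and restrains myosin, was at 187 and 127 CPM in controls and 316 and 265 CPM in siNampt. The log2 difference was 0.89 ± 0.20 (SE), and the pools with non-targeting siRNA lay between, at 219 and 210 CPM. Myl9, a regulatory light chain of non-muscle and smooth muscle myosin, was at 28.5 and 9.68 CPM in controls, 45.9 and 47.8 CPM with non-targeting siRNA and 65.8 and 78.4 CPM in siNampt. Its difference was the largest of the 12 at 1.91 ± 0.50 (SE), and the 2 controls differed from each other more than the 2 siNampt pools did. Dstn, destrin, which severs and depolymerizes actin filaments, was at 1369 and 1017 CPM in controls and 2102 and 1723 CPM in siNampt (log2 0.68 ± 0.16 SE), against 1816 and 1753 CPM with non-targeting siRNA. Arpc5, a subunit of the Arp2/3 complex that starts branched filaments, was at 1284 and 1083 CPM in controls, 1920 and 1636 CPM in siNampt (0.59 ± 0.18 SE) and 1859 and 1547 CPM with non-targeting siRNA. For Dstn and Arpc5, as for Rsu1, the pools of the 2 siRNAs overlapped, and all lay above the controls. Tpm4, a tropomyosin that lies along actin filaments, was at 660 and 671 CPM in controls, 774 and 821 CPM with non-targeting siRNA and 955 and 959 CPM in siNampt (0.52 ± 0.14 SE). Csrp1, a LIM protein of actin bundles, was at 169 and 160 CPM in controls, 186 and 177 CPM with non-targeting siRNA and 273 and 236 CPM in siNampt (0.63 ± 0.14 SE). For Tpm4 and Csrp1 the controls differed little from each other, and the non-targeting pools lay between the groups. Rsu1, which joins the integrin-linked kinase complex at adhesions, was at 137 and 112 CPM in controls, 213 and 172 CPM with non-targeting siRNA and 244 and 166 CPM in siNampt. Sorbs3, the adhesion adaptor vinexin, was at 2.27 and 4.14 against 6.88 and 7.57 CPM, and its non-targeting pools were at the control level of 2.98 and 3.22 CPM.

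The other members of the 12 have varied roles. Bok, a pore-forming member of the BCL2 family that promotes cell death, was at 32.2 and 25.6 CPM in controls, 40.7 and 39.4 CPM with non-targeting siRNA and 55.4 and 51.2 CPM in siNampt (log2 0.88 ± 0.20 SE). Pde8a, a phosphodiesterase that degrades cyclic AMP, was at 3.75 and 3.82 CPM in controls, 6.54 and 5.67 CPM with non-targeting siRNA and 7.77 and 8.99 CPM in siNampt. The controls were close together, and the log2 difference was 1.15 ± 0.30 (SE). Marveld2, tricellulin, which seals the corners where 3 epithelial cells meet, was at 22.8 and 26.2 CPM in controls, 32.9 and 27.8 CPM with non-targeting siRNA and 40.1 and 35.3 CPM in siNampt (0.62 ± 0.17 SE). Serpinb6b, an intracellular serine protease inhibitor, was at 77.5 and 39.2 CPM in controls and 106 and 107 CPM in siNampt (0.86 ± 0.26 SE), but at 111 and 155 CPM with non-targeting siRNA, above both siNampt pools.

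**Figure D2:**
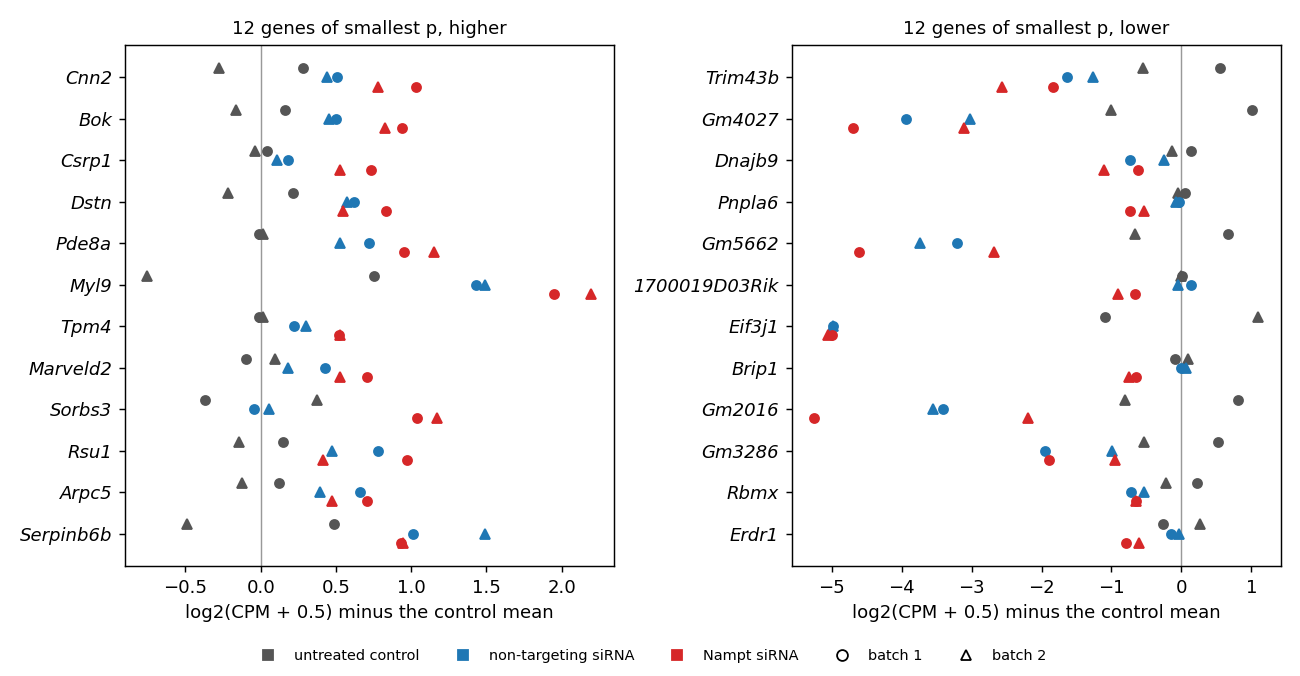
Level of the 12 genes of smallest p in each direction, as log2(CPM + 0.5) minus the mean of the 2 controls, 1 point per library; circles are batch 1 and triangles batch 2. The genes were chosen by this contrast, and the blue non-targeting pools lie between control and siNampt for Cnn2 and at or near siNampt for Arpc5 and Dstn.

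The 12 genes of smallest p among those lower in siNampt were Trim43b, Gm4027, Dnajb9, Pnpla6, Gm5662, 1700019D03Rik, Eif3j1, Brip1, Gm2016, Gm3286, Rbmx and Erdr1, with unadjusted p-values from 0.000564 to 0.0108. Several belong to families of near-identical copies whose reads the counting could split between members, so their values are uncertain. Trim43b, one of a family of tripartite-motif genes of the early embryo, was at 30.1 and 13.8 CPM in controls, 6.21 and 8.19 CPM with non-targeting siRNA and 5.37 and 3.04 CPM in siNampt. The log2 difference was -2.38 ± 0.52 (SE). Gm4027, Gm5662 and Gm2016, a group of related genes on chromosome 12, were each high in both controls, with Gm5662 at 101 and 40.3 CPM. In siNampt Gm5662 was at 2.13 and 9.502 CPM, and with non-targeting siRNA at 6.49 and 4.32 CPM. Gm2016 was at 84.7 and 27.3 CPM in controls and 0.773 and 10.1 CPM in siNampt, and Gm4027 at 31.9 and 7.54 against 0.125 and 1.37 CPM. Gm3286 was at 42.6 and 20.2 against 7.54 and 15.02 CPM. With non-targeting siRNA Gm2016 was at 4.09 and 3.66 CPM, Gm4027 at 0.555 and 1.49 CPM and Gm3286 at 7.24 and 14.6 CPM, below both controls as in siNampt. In all of these the control of batch 1 was the highest of the 4 libraries. For each of them the untreated HFD_C pools were also below both ND_C pools. Trim43b was there at 3.59 and 7.17 CPM, Gm5662 at 7.88 and 2.59 CPM and Gm2016 at 5.81 and 1.57 CPM. Gm4027 was at 0.0653 and 0.12 CPM in HFD_C, and Gm3286 at 19.8 and 10.6 CPM. Eif3j1, which has a near-identical copy in Eif3j2, had 363 and 1647 rounded counts in the controls and 1 and 0 in siNampt, and 1 in each pool with non-targeting siRNA. Eif3j2 was at 254 and 214 CPM in controls and 304 and 261 CPM in siNampt (log2 0.27 ± 0.17 SE). Eif3j1 was also at 0 in both HFD_C pools and at 1108 counts in 1 HFD_siNampt pool, so its presence varied between pools of 1 group. In a list of 2-cell-stage genes 7 of 9 measured members were lower (median -2.41). Under the nominal threshold were 2 (22.2%), both lower, against 1.36% of all genes. The list median was -0.97 within batch 1, -0.02 within batch 2 and -1.77 for non-targeting siRNA. It ran from -4.96 to 0.19 over 13 alternative fits, and the list was not tested.

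The remaining genes of the 12 showed smaller differences. Dnajb9, a co-chaperone of BiP in the endoplasmic reticulum, was at 52.7 and 43.2 CPM in controls, 28.4 and 39.9 CPM with non-targeting siRNA and 30.8 and 21.8 CPM in siNampt (log2 -0.87 ± 0.22 SE). Pnpla6, a phospholipase that deacylates phosphatidylcholine, was at 38.8 and 36.5 CPM in controls and 22.4 and 25.8 CPM in siNampt (-0.64 ± 0.17 SE), and stayed at the control level of 36.8 and 35.5 CPM with non-targeting siRNA. Brip1, a helicase of DNA crosslink repair, was at 11.6 and 13.2 CPM in controls, 12.3 and 12.9 CPM with non-targeting siRNA and 7.71 and 7.12 CPM in siNampt (-0.74 ± 0.23 SE). For Pnpla6 and Brip1 the 4 pools without Nampt siRNA in the normal diet arm were close together. The uncharacterized gene 1700019D03Rik was at 12.7 and 12.6 CPM in controls, 14.0 and 12.3 CPM with non-targeting siRNA and 7.82 and 6.52 CPM in siNampt. Untreated HFD_C pools were below both ND_C pools for these 3 genes. They were at 29.0 and 24.1 CPM for Pnpla6, 9.82 and 8.33 CPM for Brip1 and 6.62 and 8.45 CPM for 1700019D03Rik. Rbmx, an RNA-binding splicing regulator on the X chromosome, was at 31.0 and 22.5 against 16.6 and 16.6 CPM, with non-targeting pools at 15.8 and 18.2 CPM. Erdr1 was at 38.9 and 56.3 against 26.8 and 30.7 CPM, with non-targeting pools at 42.1 and 45.6 CPM.

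The median difference was above 0 for trophectoderm markers and below 0 for markers of both inner lineages, but 0 members passed the test over all genes and the lists as such were not tested. Of 28 measured trophectoderm markers 24 were higher and 4 lower, with a median log2 difference of 0.25, against -0.01 over all genes; 8 (28.6%) were above both controls in both siNampt pools and 0 below, against 14.8% each way over all genes. Krt8 and Krt18, the paired keratins of this epithelium, were at 1449 and 1391 CPM and at 3254 and 2756 CPM in controls. In siNampt they were at 1901 and 1863 CPM and at 4453 and 4072 CPM, with differences of 0.41 ± 0.13 (SE) and 0.50 ± 0.18. Krt7, a further keratin, was at 74.4 and 58.8 against 141 and 87.2 CPM (0.78 ± 0.30 SE). With non-targeting siRNA Krt8 was at 1342 and 1342 CPM, Krt18 at 3024 and 2468 CPM and Krt7 at 59.9 and 61.4 CPM, all below both siNampt pools. The transcription factors Cdx2 and Gata3, picked from the list after their values were seen, were higher as well but did not reach the nominal threshold. The other transcription factors of the list are not described here. Cdx2 was at 10.9 and 9.47 against 16.4 and 14.6 CPM (log2 0.60 ± 0.30 SE), and Gata3 at 257 and 220 against 288 and 280 CPM (log2 0.25 ± 0.14 SE). The siNampt pool of batch 1 was the highest of the 4 libraries for 18 of the 28 markers. Above the control of the same batch were 24 markers in batch 1 and 16 in batch 2. The median difference was 0.34 within batch 1 and 0.11 within batch 2, and 0.13 without the siNampt pool of batch 1.

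Genes of tight junctions and cavity formation, which the trophectoderm needs to hold fluid, had a median above 0 as well. Of 34 measured members 27 were higher and 7 lower, with a median of 0.11; in 12 (35.3%) both siNampt pools were above both controls and in 2 (5.88%) below, against 14.8% each way over all genes. Besides Marveld2, the claudin Cldn4 was at 562 and 609 CPM in controls, 555 and 528 CPM with non-targeting siRNA and 783 and 867 CPM in siNampt (0.50 ± 0.19 SE). Another claudin, Cldn12, differed the opposite way, at 7.05 and 6.65 CPM in controls, 3.79 and 4.43 CPM with non-targeting siRNA and 5.18 and 2.59 CPM in siNampt (-0.82 ± 0.37 SE). The Hippo pathway, which reads cell polarity and sets Cdx2, was balanced: of 22 members 11 were higher and 11 lower, with a median of 0.03. Its smallest p was that of Nf2, an upstream activator, at 12.6 and 10.1 against 7.96 and 8.25 CPM (log2 -0.48 ± 0.25 SE).

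In the epiblast and inner cell mass list 6 of 27 members were higher and 21 lower, with a median of -0.24. Both siNampt pools were below both controls for 8 members (29.6%) and above for 4 (14.8%), against 14.8% each way over all genes. Nanog, a core pluripotency factor, was at 103 and 118 CPM in controls and 58.1 and 92.7 CPM in siNampt (log2 -0.56 ± 0.30 SE), but also at 60.9 and 83.9 CPM with non-targeting siRNA. Tdgf1, the Nodal co-receptor, was at 145 and 97.1 against 94.6 and 76.7 CPM, and the pluripotency factor Klf4 at 40.3 and 26.5 against 25.6 and 21.9 CPM (log2 -0.50 ± 0.25 SE and -0.49 ± 0.25 SE). Above the control of the same batch were 7 markers in batch 1 and 9 in batch 2, and without the siNampt pool of batch 1 the median of the list was -0.09. Sox2 was at 9.80 and 5.10 against 6.14 and 2.99 CPM, lower within each batch although the groups overlapped. The 1 member (3.7%) under the nominal threshold was higher in siNampt, against 1.2% of all genes in that direction. This was Etv4, a target of FGF signalling, which rested on at most 0.781 CPM.

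Primitive endoderm markers gave the lowest median of the lineage lists, -0.31 over 25 measured members, of which 6 were higher and 19 lower. Both siNampt pools were below both controls for 10 (40.0%) and above for 1 (4.0%), against 14.8% each way over all genes. Pdgfra, the growth factor receptor by which these cells are recognized, was at 62.0 and 54.0 CPM in controls, 46.2 and 48.3 CPM with non-targeting siRNA and 37.5 and 37.0 CPM in siNampt. Its log2 difference was -0.64 ± 0.23 (SE). Gata6, the factor that starts the lineage, was at 147 and 141 CPM in controls and 113 and 115 CPM in siNampt (-0.33 ± 0.18 SE), with non-targeting pools at 110 and 146 CPM. The untreated HFD_C pools were below both ND_C pools for Pdgfra (40.9 and 44.8 CPM) and Gata6 (114 and 102 CPM). Bmp2 was under 0.5 CPM in all 4 libraries. Above the control of the same batch were 11 markers in batch 1 and 1 in batch 2. The median difference was -0.08 within batch 1 and -0.46 within batch 2, and -0.10 without the siNampt pool of batch 2. For the pools with non-targeting siRNA, which share their controls with this comparison, the medians of the trophectoderm, epiblast and primitive endoderm lists against the control were -0.04, 0.10 and -0.23.

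Of the genes that signal between the inner lineages, the Nodal, BMP and TGF-beta list had 12 of 29 members higher and 17 lower (median -0.04). Both siNampt pools were below both controls for 8 of these (27.6%) and above for 1 (3.45%), against 14.8% each way over all genes. Smad3, which carries Nodal and TGF-beta signals to the nucleus, was at 5.38 and 4.63 CPM in controls, 5.55 and 5.51 CPM with non-targeting siRNA and 2.07 and 2.26 CPM in siNampt. The 4 normal diet pools without Nampt siRNA lay together and both siNampt pools below them (log2 -1.21 ± 0.27 SE). In the other diet Smad3 was at 4.61 and 5.08 CPM in HFD_C and 4.98 and 4.80 CPM in HFD_siNampt (log2 0.01 ± 0.27 SE). Id3, a target of BMP signalling, was at 42.7 and 27.2 against 16.9 and 29.7 CPM (log2 -0.58 ± 0.27 SE). In the FGF and ERK list 16 of 29 were higher and 13 lower (median 0.01), with 7 (24.1%) above and 4 (13.8%) below both controls in both siNampt pools. Spry2, a feedback inhibitor induced by FGF, was at 48.9 and 30.9 against 26.7 and 27.4 CPM (-0.56 ± 0.24 SE), and Map2k2, the kinase upstream of ERK, at 23.6 and 21.0 against 28.3 and 34.1 CPM (0.49 ± 0.20 SE).

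**Figure D3:**
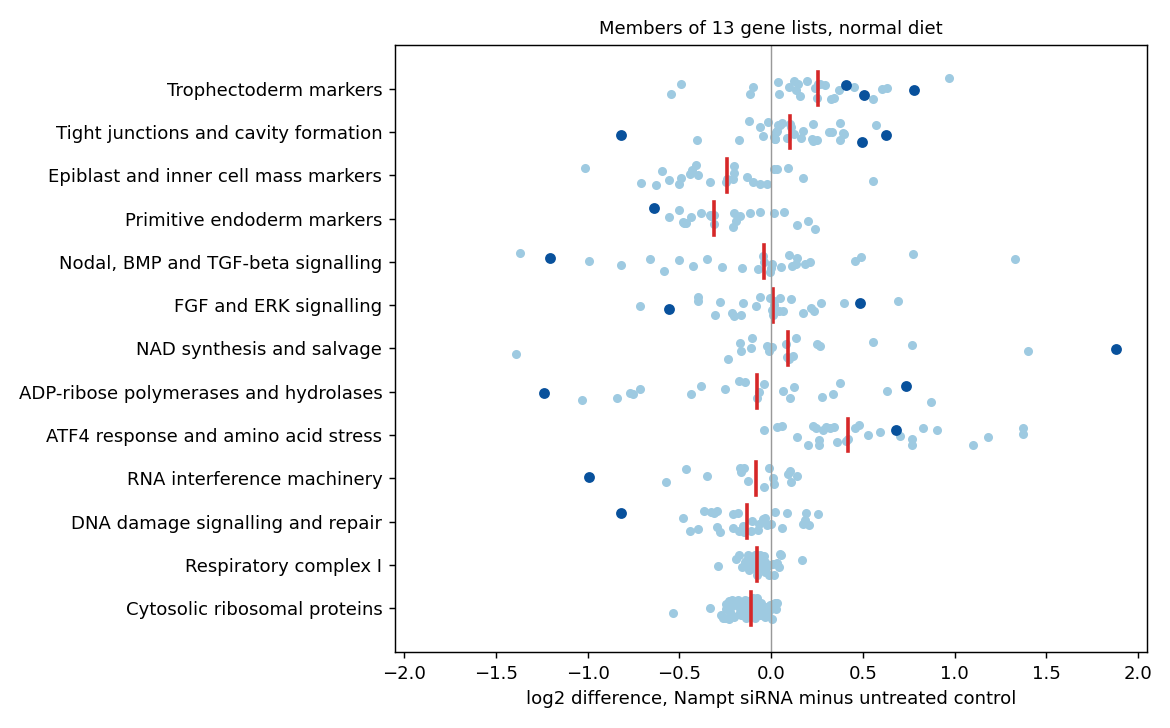
Log2 difference of each measured member of 13 gene lists, siNampt minus untreated control in the normal diet arm; dark points are under the nominal threshold, red bars are list medians, and 8 members beyond ±2 are not drawn. The medians are 0.25 for trophectoderm, -0.24 for epiblast, -0.31 for primitive endoderm and 0.42 for the ATF4 list, against -0.01 over all genes tested, and no member passes the adjusted threshold.

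The list with the highest median was the ATF4 response, the genes that a stressed cell induces for amino acid synthesis and transport, and its difference came from 1 batch. Of 31 measured members 30 were higher and 1 lower (median 0.42). Under the nominal threshold was 1 member (3.23%), higher in siNampt, against 1.2% of all genes in that direction. In 4 members (12.9%) both siNampt pools were above both controls, against 14.8% over all genes. For the pools with non-targeting siRNA against the same controls the median of the list was 0.34. The siNampt pool of batch 1 was the highest of the 4 libraries for 30 of the 31. Within batch 1 the median difference was 0.69, with 31 members higher, and within batch 2 it was -0.08, with 11 higher. Nupr1, a stress-induced chromatin protein singled out after its values were seen, was at 21.0 and 7.30 CPM in controls, 82.0 and 29.6 CPM with non-targeting siRNA and 113 and 5.09 CPM in siNampt. Psat1, of serine synthesis, was at 179 and 128 CPM in controls, 321 and 146 CPM with non-targeting siRNA and 444 and 130 CPM in siNampt. Pycr1, of proline synthesis, was at 1.95 and 1.42, 5.55 and 1.80, and 6.88 and 1.89 CPM in the same order. Slc7a5, a carrier of large amino acids and also of tryptophan for NAD synthesis, was at 8.13 and 6.12, 9.04 and 6.47, and 19.1 and 5.17 CPM. In siNampt all 4 were well above the control in batch 1 and near or below it in batch 2, except that Pycr1 was slightly higher there too. Without the siNampt pool of batch 1 the median of the list became -0.32. Ppp1r15a, which restores translation by dephosphorylating eIF2-alpha, was the member under the nominal threshold: at 9.42 and 8.73 CPM in controls, 7.42 and 6.40 CPM with non-targeting siRNA and 14.9 and 14.1 CPM in siNampt, it was higher in both batches (0.68 ± 0.27 SE).

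**Figure D4:**
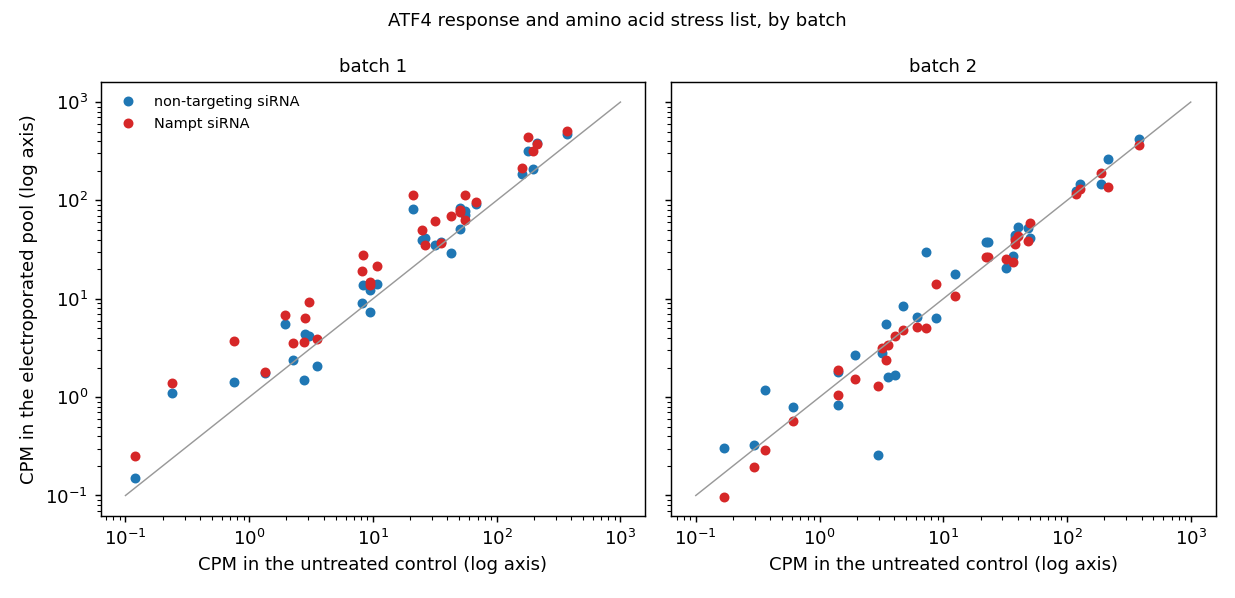
Level of the 31 measured members of the ATF4 list in the electroporated pool against the untreated control of the same batch (CPM, log axes; the line marks equal levels). The red siNampt points lie above the line for all 31 in batch 1 and for 11 in batch 2.

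Other stress lists showed no shift of this size. The immediate early gene Jund, an AP-1 subunit, was at 34.9 and 34.5 CPM in controls, 27.8 and 28.6 CPM with non-targeting siRNA and 58.8 and 76.1 CPM in siNampt (log2 0.96 ± 0.32 SE), while its list of heat shock and immediate early genes had 10 of 24 higher and a median of -0.03. In the endoplasmic reticulum chaperone list 10 of 25 were higher and 15 lower (median -0.05). Its 1 member (4.0%) under the nominal threshold, Dnajb9, was lower, against 1.36% of all genes in that direction. The p53 list was balanced, 16 of 32 each way with a median of 0.01. Among BCL2 family and apoptosis genes 15 of 28 were higher (median 0.01). The 1 member (3.57%) under the nominal threshold, Bok, was higher, against 1.2% of all genes in that direction. The initiator caspase Casp8 was at 2.53 and 2.08 against 5.83 and 3.32 CPM (log2 0.99 ± 0.58 SE). The antioxidant list had 14 of 33 higher and a median of -0.01.

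Introducing siRNA can engage RNA sensors and the silencing machinery, so both lists were read. Of 24 measured genes for sensing foreign RNA and the interferon response 10 were higher and 14 lower (median -0.06), and 0 were under the nominal threshold. Irf9, of the interferon-activated complex, was at 6.12 and 7.96 CPM in controls, 3.13 and 3.76 CPM with non-targeting siRNA and 3.66 and 5.62 CPM in siNampt. In the RNA interference machinery 6 of 16 were higher and 10 lower (median -0.08), with 7 (43.8%) below and 0 above both controls in both siNampt pools, against 14.8% each way over all genes. Ago1 and Ago2, the Argonaute proteins that hold the guide strand, were at 3.37 and 4.61 CPM and at 9.22 and 11.8 CPM in controls. In siNampt they were at 2.19 and 1.81 CPM (log2 -0.99 ± 0.39 SE) and at 6.00 and 8.18 CPM (-0.57 ± 0.31 SE). With non-targeting siRNA Ago1 was at 2.35 and 4.08 CPM, overlapping the controls, and Ago2 at 5.86 and 8.82 CPM, below both controls as in siNampt.

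Genes of energy metabolism, where NAD serves as electron carrier, differed by small amounts. Of 37 measured subunits of respiratory complex I, which oxidizes NADH, 7 were higher and 30 lower with a median of -0.08, within batch 1 -0.17 and within batch 2 0.02. Ndufa6 had the smallest p, at 354 and 305 against 272 and 266 CPM (log2 -0.29 ± 0.16 SE). Nuclear subunits of complexes II to V had 13 of 40 higher and 27 lower (median -0.08). In the TCA cycle 18 of 30 were higher (median 0.03), and Pdk2, a kinase that inhibits pyruvate dehydrogenase, was at 6.61 and 6.77 CPM in controls, 4.57 and 4.04 CPM with non-targeting siRNA and 4.35 and 3.86 CPM in siNampt (log2 -0.71 ± 0.28 SE). Glycolysis had 14 of 28 each way (median 0.00), with 1 member (3.57%) under the nominal threshold and lower, against 1.36% of all genes in that direction. This was Ldhb, the lactate dehydrogenase subunit that favours pyruvate formation, at 2.81 and 2.42 against 1.09 and 0.956 CPM (log2 -1.35 ± 0.42 SE). Fatty acid synthesis had 13 of 31 higher (median -0.04), with Acsl4, which activates arachidonic acid, at 12.3 and 13.5 against 10.1 and 5.83 CPM (log2 -0.70 ± 0.27 SE) and the phosphatidate phosphatase Lpin2 at 1.79 and 3.10 against 0.690 and 1.37 CPM (log2 -1.25 ± 0.54 SE). Beta-oxidation had 13 of 27 and cholesterol synthesis 18 of 26 higher, with medians of -0.02 and 0.08.

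The same contrast in the other diet, HFD_siNampt against HFD_C, shares no library with the normal diet difference. Its libraries did enter the common fit, and so the filter and spread behind the p-values that chose the genes above. There too 0 of 14743 genes passed (0.0%), with 833 (5.65%) under the nominal threshold. Of the 12 genes higher in the normal diet arm 4 had a positive and 8 a negative difference in the other, and of the 12 lower ones 8 had a positive and 4 a negative difference. The lineage lists had medians of 0.08 (trophectoderm), 0.25 (epiblast) and 0.17 (primitive endoderm) there. The epiblast and primitive endoderm medians thus had the opposite sign to those of the normal diet arm, and the difference of the list medians was not tested. An interaction term tested whether the siNampt effect differed with diet, and in it 0 genes passed (0.0%) and 620 (4.21%) were under the nominal threshold. Its 5 genes of smallest p were Dstn, Gm4027, Pnpla6, Tpm4 and Vps45, each at adjusted p = 0.976 by edgeR. Of these, 4 were among the genes chosen above by the normal diet contrast. The interaction term subtracts that same normal diet difference, so the overlap and the interaction sizes of these genes follow in part from the choice. Dstn was at 1800 and 1701 CPM in HFD_C and 1261 and 1243 CPM in HFD_siNampt, lower with the siRNA where the normal diet arm was higher (difference of log2 differences -1.16 ± 0.23 SE). Tpm4 was at 817 and 911 against 578 and 723 CPM in that arm (-0.93 ± 0.20 SE). The HFD_C pools were thus above the ND_C pools for Dstn and Tpm4 without siRNA. Pnpla6 was at 29.0 and 24.1 CPM in HFD_C and 38.1 and 38.6 CPM in HFD_siNampt (1.17 ± 0.24 SE). Vps45, a protein of vesicle fusion at endosomes, was at 10.6 and 13.3 CPM in ND_C, 18.4 and 17.6 CPM in ND_siNampt, 15.5 and 15.3 CPM in HFD_C and 9.24 and 8.49 CPM in HFD_siNampt. For Nampt itself, at 67.0 and 57.3 CPM in HFD_C and 50.3 and 44.0 CPM in HFD_siNampt, the interaction estimate was -0.38 ± 0.34 (SE; adjusted p = 0.976 by edgeR).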

How the data were processed

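Poly(A) RNA of pools of 10 blastocysts was made into libraries with a SMART-Seq v4 PLUS kit, per the labels' protocols. The authors deposited RSEM gene tables with expected counts and TPM (mm10; STAR 2.7.10 and RSEM 1.2.28, per the submitters' processing notes); strand handling is not given. Expected counts as deposited by the authors were rounded. All 12 libraries (42473129 to 50503064 counts) entered 1 edgeR 4.0.16 quasi-likelihood fit (R 4.3.3) with 6 group means, filterByExpr (minimum count 10), TMM scaling and Benjamini-Hochberg adjustment at 0.05 over 14743 of 24411 genes; SEs come from the fold change and its F statistic. CPM uses TMM-scaled library sizes. TPM deposited by the authors served for levels between genes and for limma 3.58.1 on log2(TPM + 1). Fits were tested on simulated data. Named genes were Nampt, NAD-related genes by role, up to 3 of smallest p per other list, the 12 of smallest p each way at 5 CPM or more, and 5 for the diets; lineage factors (Cdx2, Gata3, Nanog, Sox2), Nupr1, Ifng and Eif3j2 were chosen after their values were seen. The comparison, lists and tests were chosen with earlier results of these data known. Labels give the batch, equal to the replicate number, so the numbers pair the pools; deviations of same-numbered ND_C and ND_siNampt pools correlated at 0.2201, and over all 15 pairs of groups from -0.0581 to 0.2201. Alternatives were DESeq2 1.42.0, other scaling and filters, a replicate block, a Y-linked covariate and leaving out each pool.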

Additional observations from a re-analysis of the deposited data

How the results depend on the processing

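For siNampt against control in the normal diet arm, 0 genes passed under RLE scaling, a filter of 5 CPM in at least 2 libraries, both limma fits, the fit on the compared libraries alone, the Y-linked covariate, the replicate block and the omission of each pool (lowest and highest count 0). DESeq2 called 2 and the fit with no filter on low counts 58. The count at unadjusted p under 0.05 was 735 with no filter and 182 with the filter of 5 CPM, which tests fewer genes; with 1 pool left out it ran from 367 to 599, the latter without ND_siNampt replicate 2, and the cause was not tested. For the difference between diets DESeq2 called 1, no filter 83, and omission of a pool 0 to 1 (Tgoln2, without HFD_siNampt replicate 2). For non-targeting siRNA against control DESeq2 called 5, no filter 93, and omission of a pool 0. The replicate block gave 426 genes at unadjusted p under 0.05 against 377 and changed no call; Nampt was -0.01 with it. Nampt was 0.0068 with the Y-linked covariate and ran from -0.29 to 0.27 with a pool left out, which leaves its group with 1 pool assumed to vary like the other groups. Some other log2 differences changed sign only when a pool was left out. Among them were Nadk2 (-0.53 to 0.15), Nadsyn1 (-0.43 to 0.48), Naprt (-0.52 to 0.21) and Nmrk1 (-0.28 to 0.11). The rest were Nupr1 (-1.48 to 3.02), Parp2 (-0.0149 to 0.14), Psat1 (-0.24 to 1.53) and Slc7a5 (-0.46 to 1.42). Tdo2 (0.0 to 8.91) fell to 0.0 without ND_siNampt replicate 2. Pnp was -0.43 to 0.34 with a pool left out, -0.0043 with the filter of 5 CPM, -0.0615 with the replicate block, -0.0494 and -0.053 in the limma fits and -0.10 with the Y-linked covariate. The other 79 of 89 named genes kept their direction in every alternative run. Many of them were named for a small p in this same contrast, so a kept direction follows largely from that choice. List medians ran from 0.13 to 0.36 for trophectoderm, -0.36 to -0.09 for epiblast, -0.46 to -0.10 for primitive endoderm, 0.06 to 0.18 for tight junctions and -0.32 to 0.83 for the ATF4 list over 13 alternatives. Genes under about 1 CPM, such as Nmnat3, Etv4 and Bmp2, rested on few counts in 2 pools a group. Whether depth or the spread between pools limited them was not tested.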

Other observations

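Of 77 measured genes of cytosolic ribosomal proteins 72 were lower in siNampt and 5 higher, none of them past the test, with a median log2 difference of -0.11 against -0.01 over all genes; both siNampt pools were below both controls for 38 (49.4%) and above for 0, against 14.8% each way over all genes. Above the control of the same batch were 3 in batch 1 and 20 in batch 2. Rps24 was at 1304 and 1219 CPM in controls and 1073 and 1033 CPM in siNampt (log2 -0.26 ± 0.14 SE), Rps21 at 252 and 294 against 227 and 234 CPM (log2 -0.24 ± 0.13 SE) and Rpl26 at 235 and 221 against 196 and 165 CPM (log2 -0.34 ± 0.16 SE), with no gene of the list at an unadjusted p under 0.05. The median over 13 alternatives ran from -0.12 to -0.06. In the pools with non-targeting siRNA, which share these controls, the median was 0.20. Mitochondrial ribosomal proteins had 34 of 76 higher and a median of -0.02.

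Genes of DNA damage signalling and repair were lower in 23 of 32 cases with a median of -0.13, and both siNampt pools were below both controls for 9 (28.1%) and above for 4 (12.5%), against 14.8% each way over all genes. Mdc1, a scaffold at double-strand breaks, was at 5.16 and 3.06 against 1.96 and 2.69 CPM (log2 -0.82 ± 0.38 SE), and the kinase Atm at 32.5 and 25.9 against 21.8 and 22.6 CPM (log2 -0.40 ± 0.19 SE). In the cell cycle list 17 of 42 were higher and 25 lower (median -0.04), with the spindle checkpoint kinase Bub1b at 29.0 and 33.1 CPM in controls, 18.0 and 21.2 CPM with non-targeting siRNA and 19.5 and 25.03 CPM in siNampt (log2 -0.48 ± 0.19 SE).

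Ifng, the cytokine interferon gamma, had the smallest p of all genes tested (adjusted p = 1.00 by edgeR) and was singled out after its values were seen. It had 75 and 353 rounded counts in the ND_C pools, 2 and 0 in ND_siNampt, 0 in both ND_siNT pools, 0 in both HFD_C pools and 1 in 1 of the 2 pools of HFD_siNT and of HFD_siNampt. Both pools in which it was plainly detected were thus untreated controls of the normal diet arm. DESeq2 gave it an adjusted p of 0.00058. Vim, listed as a marker of blood and endometrial cells, was at 13.5 and 14.7 against 10.5 and 7.88 CPM (log2 -0.62 ± 0.27 SE).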
